A study of Homo sapiens with 8 samples.

Results

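Potassium channel genes were examined in SH-SY5Y cells exposed to maleic acid. They were taken as every gene whose symbol starts with KCN in the array's annotation, counting only probes with a single symbol. This gave 92 genes of 18282 genes with such a probe, measured by 130 probes of 31741. SH-SY5Y, an established line of human neuroblastoma, serves as a model of neurons, and maleic acid is a small dicarboxylic acid known as a food adulterant and as a kidney toxicant in animals. The cells were exposed for 24 h to 10, 50 or 100 μM maleic acid, and the control cells were left untreated at 0 μM. All came from the same line with no genetic change, and the line is a tumour-derived culture and not a primary neuron. The RNA of each dose was labelled with Cy5 and hybridized to 2 Human Whole Genome OneArray arrays, so that 8 arrays stood for 4 RNA samples. The pair of arrays repeats the measurement of 1 sample. Its spread covers the array measurement only, and a difference between cultures and an effect of maleic acid cannot be told apart in any value given here.

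Potassium channels let potassium ions leave or enter a cell through a selective pore, and they set the resting potential and end each action potential in neurons. Voltage-gated channels open when the membrane depolarizes. Their genes here are KCNA, KCNB, KCNC, KCND, KCNF, KCNG, KCNH, KCNQ, KCNS and KCNV, some of which encode subunits that modify the others. Inward rectifiers (KCNJ) pass current more easily into the cell, and some answer to G proteins or to ATP. Two-pore channels (KCNK) carry the leak current at rest, and calcium-activated channels (KCNMA1, KCNN) open when cellular calcium increases. Accessory subunits (KCNAB, KCNE, KCNIP, KCNMB) do not form the pore but change how it opens or how it reaches the membrane.

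By subfamily, the 92 genes were 35 voltage-gated, 16 inward rectifier, 15 two-pore and 8 calcium-activated genes, together with 13 accessory genes of voltage-gated and 4 of calcium-activated channels. The calcium-activated genes here include the sodium-activated relatives KCNT1 and KCNT2 and the pH-sensitive KCNU1. The remaining gene, KCNQ1DN, is a noncoding neighbour of KCNQ1. The probes numbered 49, 21, 19, 10, 20 and 10 in the order above, and 1 for KCNQ1DN. The symbol KCNE1L is an older name of KCNE5.

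The promoters of KCNK1, KCNC1 and KCNQ5, which had probes that fell at 100 μM, and of KCNJ18, which had the probe with the largest increase, are shown because the results below turn on these genes. Each is the 250 bases before the annotated start on the plus strand, credited to RefSeq on GRCh38.p14, and was printed 5′ to 3′ with every GC box (GGGCGG or its reverse complement CCGCCC, overlapping matches included) in capitals. They lie at chr1:233613856-233614105 for KCNK1, at chr11:17734531-17734780 for KCNC1, at chr6:72621814-72622063 for KCNQ5 and at chr17:21692273-21692522 for KCNJ18. For KCNC1 the entry with the lowest coordinate was used.
KCNK1: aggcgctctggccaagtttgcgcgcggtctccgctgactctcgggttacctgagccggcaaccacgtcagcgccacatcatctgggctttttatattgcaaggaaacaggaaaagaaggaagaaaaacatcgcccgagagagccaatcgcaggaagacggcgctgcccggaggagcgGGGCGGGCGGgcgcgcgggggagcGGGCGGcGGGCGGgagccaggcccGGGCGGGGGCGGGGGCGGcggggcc
KCNC1: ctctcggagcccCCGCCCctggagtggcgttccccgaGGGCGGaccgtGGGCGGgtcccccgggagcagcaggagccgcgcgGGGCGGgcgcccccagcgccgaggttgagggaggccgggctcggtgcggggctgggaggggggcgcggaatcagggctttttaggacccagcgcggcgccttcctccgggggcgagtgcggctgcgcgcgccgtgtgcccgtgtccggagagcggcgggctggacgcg
KCNQ5: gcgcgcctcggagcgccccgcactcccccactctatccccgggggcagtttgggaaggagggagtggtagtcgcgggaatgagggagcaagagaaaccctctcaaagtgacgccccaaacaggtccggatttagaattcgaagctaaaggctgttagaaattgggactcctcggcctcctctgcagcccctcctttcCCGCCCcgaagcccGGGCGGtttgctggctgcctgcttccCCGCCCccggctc
KCNJ18: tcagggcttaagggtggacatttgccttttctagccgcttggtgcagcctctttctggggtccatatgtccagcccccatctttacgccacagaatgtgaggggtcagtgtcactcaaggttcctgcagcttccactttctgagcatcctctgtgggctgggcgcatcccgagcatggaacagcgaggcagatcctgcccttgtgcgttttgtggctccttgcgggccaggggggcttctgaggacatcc
The window of KCNK1 held 7 GC boxes, most of them near its 3′ end, that of KCNC1 held 4 and that of KCNQ5 held 3, and that of KCNJ18 held 0. Of the 92 genes, 72 had a promoter in the table, and 39 of these (54.2%) held a GC box, against 41.6% of all 27305 promoters of this length. Among these 72 genes, a GC box was found in 10 of the 13 with a probe at 1000 or more in untreated cells (76.9%), and in 29 of the other 59 (49.2%). The same split by brightness was not made over all genes, so it is not shown to be particular to channel genes. Bright genes without a promoter in the table are not counted. The antioxidant response core TGACNNNGC was in 4 of the 72 (5.56%) on either strand, against 11% of all promoters. The median GC content of the windows was 64.6% for potassium channel genes and 57.6% for all genes. These matches describe letters in a window and were not tested against the expression values.

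The arrays of a dose correlated at r = 0.989 to 0.993 over all probes. The deposited array medians ran between 336 and 524, and the values below were therefore quantile-normalized over the 8 arrays and are given as normalized intensities on a linear scale, or as differences on the log2 scale. Of 11 measured markers of noradrenergic neuroblastoma cells, such as PHOX2A, DBH and TH, all 11 had a probe at 1000 or more in untreated cells. Of 9 markers of epithelial, blood, liver and glial cells, 1 (CD3D, on 1 of its 2 probes) did, and 3 had no probe at 50 or more. At 100 μM, 2 of the 12 probes of the list for other cells rose beyond array noise, CD3D on that probe (1.04 on the log2 scale, SE 0.25, limma adjusted p = 0.0311) and CD14 (0.63, adjusted p = 0.0159), and 1 fell, KRT8 (−0.56, adjusted p = 0.0172). The summed normalized intensity of the 12 probes was 11321 and 8816 at 100 μM, against 5349 and 5786 in control. Most of each sum came from the bright CD3D probe, with 9002 and 6669 at 100 μM, against 3526 and 4010 in control. The other CD3D probe read 19.4 and 7.96 at 100 μM, against 13.3 and 10.4 in control. Of the 13 neuroblastoma probes 0 rose and 1 fell, GATA3 on 1 of 2 probes (−0.47, adjusted p = 0.0427), and their sum was 903436 and 968192 at 100 μM, against 1108462 and 1081669 in control. The part of these shifts in the results for channel genes was not tested. In a bulk culture, fewer cells of a type and less RNA per cell cannot be told apart.

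Most potassium channel probes in untreated SH-SY5Y cells were above background but dimmer than the array's typical probe. A normalized intensity of 50 was taken as the background level, a level chosen with the values known. The mean of both control arrays reached it for 102 of 130 potassium channel probes (78.5%), against 87.9% of all probes. It reached 1000 for 19 of them (14.6%), against 38.4% of all probes. Both control arrays were under 50 for 22 potassium channel probes. The median log2 intensity was 6.78 over the 130 probes, against 8.75 over all probes. Probe brightness depends on the probe's sequence as well as on the transcript, so these levels do not rank genes.

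Among the subfamilies, calcium-activated channels had the highest share of bright probes in untreated cells, and it was near the share over all probes. Their probes reached 50 in 9 of 10 cases (90%) and 1000 in 4 of 10 cases (40%), against 87.9% and 38.4% of all probes. The median log2 intensity was 7.81, against 8.75 over all probes. The 4 bright probes were those of KCNT1, a sodium-activated channel of neurons, with 6971 and 8606 on its arrays, of KCNMA1, the pore of the large-conductance BK channel, with 2766 and 2444, of KCNT2 with 2365 and 2372, and of KCNN1, a small-conductance SK channel, with 1528 and 1452. Their accessory genes reached 50 with 7 of 10 probes, and the brightest was KCNMB4, the BK subunit of neurons, with 1752 and 2552. No test was run between subfamilies, which differ in probes as well as in genes.

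Voltage-gated channels reached 50 with 38 of 49 probes and 1000 with 9 (18.4%), and had a median log2 intensity of 6.99. KCNH2, the hERG channel that also repolarizes heart muscle, read 44278 and 43990 on 1 probe and 6755 and 6724 on the other. KCNC4, a fast A-type channel, read 17183 and 21825 on 1 probe, but 135 and 187 on the other. The 2 probes of KCNC4 thus differed by 6.93 on the log2 scale in the same RNA. KCNC1, the Kv3.1 channel of fast-spiking neurons, read 7079 and 8190, 467 and 480, and 245 and 233 on its 3 probes. Levels of the same gene therefore depended on the probe. Accessory genes of voltage-gated channels reached 50 with 15 of 20 probes, and KCNAB2, a cytoplasmic beta subunit, was brightest with 5314 and 4502.

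Inward rectifiers reached 50 with 16 of 21 probes but 1000 with 1 (4.76%), which was KCNJ8, the pore of the vascular type of ATP-sensitive channel, with 3769 and 3697. Two-pore channels reached 50 with 16 of 19 probes and 1000 with 2 (10.5%). These were KCNK3, the acid-sensitive TASK-1 leak channel, with 7053 and 7595, and KCNK1, the weakly rectifying TWIK-1 channel, with 4757 and 4578. The median log2 intensities were 6.51 for inward rectifiers, 6.65 for two-pore channels, 6.78 for accessory genes of voltage-gated channels and 6.88 for those of calcium-activated channels.

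**Figure D1:**
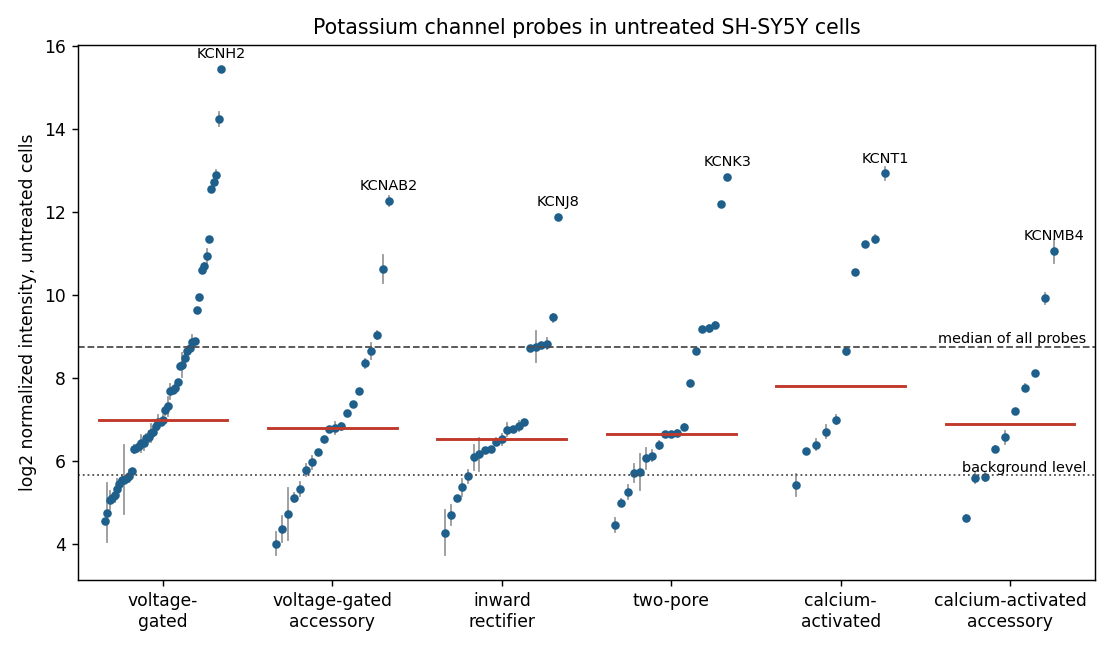
Each point is 1 potassium channel probe in untreated SH-SY5Y cells, placed by the mean log2 normalized intensity of both control arrays (y axis) within its subfamily (x axis), with a grey bar between the values of both arrays and a red line at the subfamily median. Most points lie under the dashed line at the median of all probes (8.75), the dotted line marks the background level of 50, the brightest probe of each subfamily is named, and KCNQ1DN is not drawn.

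At 100 μM, potassium channel probes moved in both directions and about as often as other probes. Over 2-fold, 4 of 130 were higher (3.08%) and 3 lower (2.31%), against 2.88% higher and 1.05% lower of all 31741 probes. These counts use measured values also where a group was under background, as for KCNJ13 and KCNK1, whose folds are given below as bounds. A second count used a limma fit over the 8 arrays, in which a probe was beyond array noise at an adjusted p under 0.05 over all probes. By that count 13 probes of 13 genes were higher (10%) and 15 probes of 14 genes lower (11.5%), against 8.94% higher and 10.4% lower of all probes. Among the 106 potassium channel probes with a mean of at least 50 over the arrays, 12 were higher (11.3%) and 14 lower (13.2%), against 9.64% and 11.4% of the 28078 such probes on the array. The median log2 difference was 0.01 over potassium channel probes and −0.03 over all probes. The size of the calls was modest, with a median of 0.76 on the log2 scale for the 13 and 0.68 for the 15.

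The split between higher and lower calls depended on the scaling of the arrays. With median scaling, 28 potassium channel probes were higher (21.5%) and 8 lower (6.15%) beyond array noise, against 16.1% and 15.1% of all probes. Over 2-fold, 26 were higher (20%) and 5 lower (3.85%) with median scaling, against 10.6% and 0.989% of all probes. Of the 130 probes, 98 (75.4%) were dimmer than the median probe in untreated cells. Over all probes under median scaling, dim probes had a median log2 difference of 0.57 and bright probes one of −0.30 at 100 μM, against 0.00 and −0.05 with quantile normalization. The 98 dim potassium channel probes had 0.56 under median scaling and −0.02 with quantile normalization. The number of calls also hung on single arrays. Leaving out any 1 array of control, 50 μM or 100 μM gave fewer calls in both directions, among potassium channel probes and over all probes alike. Each such fit leaves 1 array in that group. Of the 28 probes, 2 that were higher (KCNA1 and KCNJ18) and 3 that were lower (KCNC1, KCNK1 and KCNQ3) passed under each of 15 other settings of scaling, floor, filter, block and arrays left out.

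**Figure D2:**
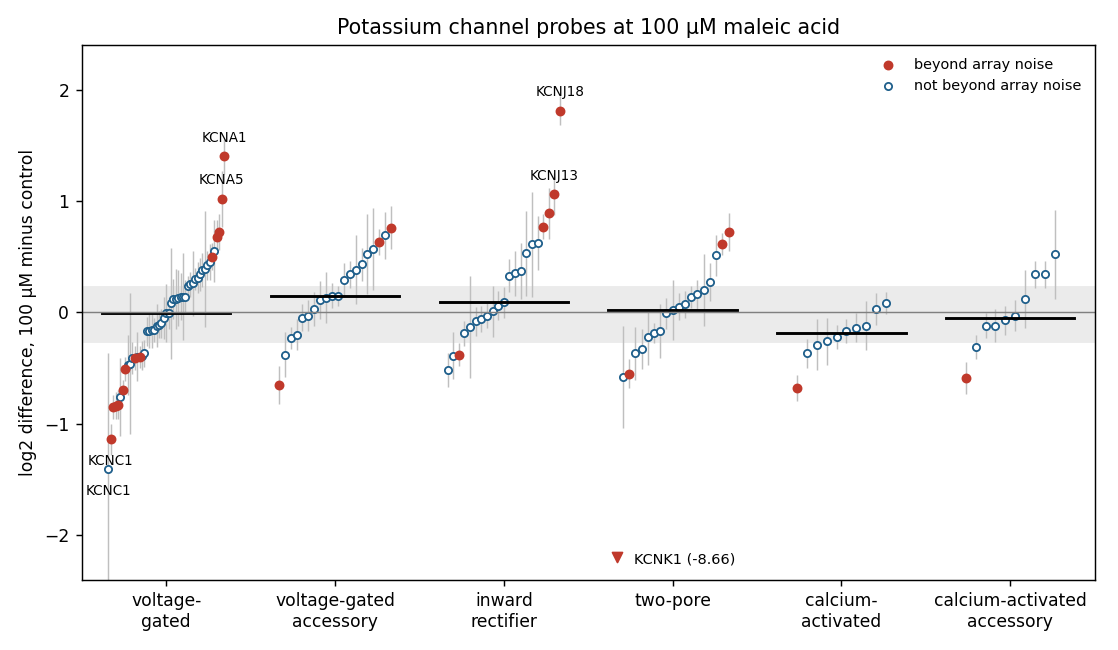
Each point is 1 potassium channel probe, placed by its log2 difference at 100 μM minus control (y axis) within its subfamily (x axis), with its standard error as a bar, filled red where it was beyond array noise and open where it was not. The grey band spans the middle 50% of all probes (−0.27 to 0.23), black lines mark subfamily medians, the bar of the lowest KCNC1 probe runs off the axis, KCNK1 is drawn as a triangle at the lower edge with its fitted value of −8.66, whose 100 μM arrays were below background and which stands for a bound of at least 93.3-fold, and KCNQ1DN, of no subfamily, is not drawn.

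Voltage-gated channels had 5 of 49 probes higher (10.2%) and 8 lower (16.3%) at 100 μM, against 8.94% and 10.4% of all probes. Their median log2 difference was −0.01. The genes that rose were KCNA1, KCNA5, KCNC4, KCND3 and KCNH4, and those that fell were KCNC1, KCNQ3, KCNQ5 on both probes, KCNA3, KCNF1, KCNG3 and KCNH7. Of these, KCNQ3, KCNQ5, KCNA3, KCND3, KCNH4, KCNF1, KCNG3 and KCNH7 were picked out after their values were seen.

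KCNA1 encodes Kv1.1, a channel of axons that limits repetitive firing. Its first probe read 86.8 and 105 in control, 235 and 280 under 10 μM, 185 and 149 under 50 μM and 263 and 241 under 100 μM. All 6 treated arrays lay above both control arrays, with 50 μM the lowest of the treated doses. The log2 difference was 1.43, 0.80 and 1.40 in order of dose (SE 0.16, limma adjusted p = 0.00508 at 100 μM). Its other probe read 401 and 535 at 100 μM, against 258 and 389 in control, a difference of 0.55 (SE 0.28) that was not beyond array noise.

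KCNA5 encodes Kv1.5, which carries a rapid current in the atrium of the heart. It read 115 and 113 in control, 162 and 283 under 10 μM, 137 and 169 under 50 μM and 220 and 243 under 100 μM. Here too every treated array exceeded both control arrays, and both arrays at 10 μM lay far apart. The difference at 100 μM was 1.02 (SE 0.25, limma adjusted p = 0.0371), and it lost the threshold when any array of control, 50 μM or 100 μM was left out. KCNA2, a close relative in axons, read 118 and 86.6 in control, 158 and 198 under 10 μM, 254 and 166 under 50 μM and 74.2 and 238 under 100 μM on its brighter probe. Both arrays at 100 μM enclosed the control values, and no dose was beyond array noise for KCNA2. The other KCNA2 probe was under 50 on every array and is given no fold.

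The A-type channel KCNC4 had the brightest probe that rose, with 32392 and 31381 at 100 μM, against 17183 and 21825 in control (0.72, SE 0.16, limma adjusted p = 0.0287). Its dimmer probe had −0.40 (SE 0.22) and was not beyond array noise, so the probes of this gene differed in sign. With median scaling the difference of the bright probe was 0.46 and with no scaling 0.14, neither beyond array noise. KCND3, the Kv4.3 channel of transient outward current, was under 50 on both control arrays and rose by at least 1.39-fold, with 63.5 and 76 at 100 μM. KCNH4, a brain member of the ether-a-go-go family, read 1188 and 1046 at 100 μM, against 815 and 758 in control (0.50, SE 0.12), and had 0.03 with no scaling, where the call was lost.

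KCNC1 encodes Kv3.1, which lets neurons fire at high rates. Its middle probe read 467 and 480 in control, 381 and 478 under 10 μM, 267 and 238 under 50 μM and 209 and 223 under 100 μM. Both control arrays and the second 10 μM array were close together, and all arrays at 50 and 100 μM lay below them. The log2 difference was −0.15, −0.91 and −1.14 in order of dose (SE 0.14, limma adjusted p = 0.00553 at 100 μM). The dimmest of its probes read 245 and 233 in control, 2223 and 164 under 10 μM, 186 and 193 under 50 μM and 91.1 and 88.1 under 100 μM. That single spot at 10 μM stood far above its partner array and widened the shared error of the fit. The difference of −1.41 at 100 μM (SE 1.04) was not beyond array noise, although both arrays lay below both control arrays, and it passed the threshold when either 10 μM array was left out (−1.45 and −1.42). The brightest probe read 6789 and 6754, against 7079 and 8190 in control (−0.17, SE 0.13), which was not beyond array noise.

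KCNQ3 and KCNQ5 are subunits of the M current, a slow potassium current that restrains neuronal firing. The brighter KCNQ5 probe read 409 and 432 in control, 284 and 329 under 10 μM, 322 and 290 under 50 μM and 250 and 219 under 100 μM. The dimmer probe read 160 and 137 in control, 156 and 141 under 10 μM, 105 and 91.2 under 50 μM and 82.5 and 84.3 under 100 μM. On the brighter probe all treated arrays lay below control, and on the dimmer one only those at 50 and 100 μM did. The differences at 100 μM were −0.84 (SE 0.12) and −0.83 (SE 0.13), with limma adjusted p of 0.00928 and 0.0101. KCNQ5 was the only gene of the 33 with several probes in which every probe was beyond array noise. These calls held under 14 and 12 of the 15 other settings.

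The dimmer KCNQ3 probe read 198 and 230 in control, 180 and 200 under 10 μM, 142 and 141 under 50 μM and 117 and 120 under 100 μM. The values at 50 and 100 μM were below every other array, and the difference at 100 μM was −0.85 (SE 0.11, limma adjusted p = 0.00701). The other KCNQ3 probe had 0.30 (SE 0.10), in the opposite direction and not beyond array noise. KCNA3, the Kv1.3 channel best known from T cells, read 128 and 128 at 100 μM, against 212 and 204 in control (−0.70, SE 0.09, limma adjusted p = 0.00697), and lost the threshold under median scaling (−0.38). KCNF1 and KCNG3, silent subunits that modify other voltage-gated channels, had −0.40 and −0.41, and KCNH7, an ERG channel of neurons, had −0.51 on 1 of 2 probes. With median scaling, KCNF1 and KCNH7 had 0.21 and 0.02 and so changed sign.

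KCNH2, which had the brightest voltage-gated probe, stayed within array noise on both probes with quantile normalization. The brighter probe read 42882 and 36389 at 100 μM, against 44278 and 43990 in control (−0.16, SE 0.11). On its other probe the values were 6325 and 6169 at 100 μM, against 6755 and 6724 in control (−0.11, SE 0.12). With median scaling this probe had −0.42, beyond array noise, and the brighter one −0.37, which was not. With no scaling they had −0.74 and −0.69, both beyond array noise, where the median of all probes was −0.339.

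The accessory genes of voltage-gated channels had 2 of 20 probes higher (10%) and 1 lower (5%), against 8.94% and 10.4% of all probes. Their median log2 difference was 0.15, with 14 of 20 probes on the positive side, against 14817 of all 31741. KCNE3, a single-pass beta subunit, read 303 and 352 in control, 313 and 432 under 10 μM, 519 and 550 under 50 μM and 616 and 494 under 100 μM. The arrays of 50 and 100 μM were above all others, and the difference at 100 μM was 0.76 (SE 0.19, limma adjusted p = 0.0361). This call was lost when any array of control or 50 μM, or the first 100 μM array, was left out, and with the replicate block (adjusted p = 0.053). KCNIP4, a calcium-binding partner of Kv4 channels, rose by 0.63 (SE 0.12) on 1 of 2 probes, with 234 and 206 at 100 μM, against 137 and 146 in control. KCNIP4 was picked out after its values were seen. KCNRG, a protein that interferes with the assembly of voltage-gated channels, fell by 0.65 (SE 0.17) on 1 probe, with 61.7 and 81.1 at 100 μM, against 100 and 123 in control, and had −0.15 under median scaling. Its brighter probe had 0.15 (SE 0.11) and was not beyond array noise. KCNAB2 and KCNAB3, cytoplasmic beta subunits, had 0.43 and 0.69 without passing the threshold.

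Inward rectifiers had 4 of 21 probes higher (19%) and 1 lower (4.76%) at 100 μM, against 8.94% and 10.4% of all probes. Their median log2 difference was 0.09 and their upper quartile 0.61, against −0.03 and 0.23 over all probes. KCNJ18, KCNJ13, KCNJ1 and KCNJ6 rose, and KCNJ9 fell. Among these, KCNJ1, KCNJ6 and KCNJ9 were picked out after their values were seen.

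KCNJ18 encodes Kir2.6, a channel of skeletal muscle. Its probe read 654 and 745 in control, 2416 and 2502 under 10 μM, 1821 and 1589 under 50 μM and 2674 and 2250 under 100 μM. All 6 treated arrays were far above control, and 50 μM was the lowest of the 3 treated doses. The log2 difference was 1.82, 1.28 and 1.81 in order of dose (SE 0.13, limma adjusted p = 0.00276, 0.0178 and 0.00127 at these doses). KCNJ18 is nearly identical to KCNJ12, which encodes Kir2.2, so which of these genes the probe reads is uncertain. The probe assigned to KCNJ12 was much dimmer, with 79.3 and 70.2 at 100 μM, against 75.1 and 81 in control (−0.06, SE 0.12).

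KCNJ13, the Kir7.1 channel of epithelia, was under 50 on both control arrays of its dimmer probe and read 93.2 and 78.3 at 100 μM. It was thus at least 1.71-fold higher (limma adjusted p = 0.0154), while its brighter probe had −0.13 (SE 0.46) with arrays of 260 and 658 at 100 μM. KCNJ1, the ROMK channel of the kidney tubule, read 434 and 408 in control, 525 and 493 under 10 μM, 723 and 667 under 50 μM and 755 and 678 under 100 μM. Every treated array exceeded both control arrays, with a difference of 0.77 (SE 0.11, limma adjusted p = 0.00793) at 100 μM. KCNJ6, the GIRK2 channel that G proteins open in neurons, was under 50 in control and at least 1.28-fold higher at 100 μM on 1 of 2 probes, a call lost without any array of control, 50 μM or 100 μM.

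Of the other G-protein-gated members, KCNJ9 (GIRK3) fell by 0.38 (SE 0.10), with 94.8 and 91.8 at 100 μM, against 125 and 118 in control, and had 0.13 under median scaling. KCNJ5 (GIRK4) had −0.52 (SE 0.15), which was not beyond array noise and was 0.02 under median scaling. KCNJ3 (GIRK1) had 0.09 (SE 0.14) on its brighter probe and 0.61 (SE 0.47) on the other, neither beyond array noise. KCNJ8, the bright ATP-sensitive channel gene, read 4070 and 3726 at 100 μM, against 3769 and 3697 in control (0.06, SE 0.13).

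Two-pore channels had 2 of 19 probes higher (10.5%) and 2 lower (10.5%), against 8.94% and 10.4% of all probes. Their median log2 difference was 0.02. KCNK1 had the largest difference of all potassium channel probes. It read 4757 and 4578 in control, 3924 and 4151 under 10 μM, 4688 and 3844 under 50 μM and 10.7 and 12.4 under 100 μM. The arrays of the other doses were thus close together, and both arrays at 100 μM were below background, where a value has no order. Against the background level, KCNK1 was at least 93.3-fold lower at 100 μM (limma adjusted p = 2.43e-06), and at 10 and 50 μM it differed by −0.21 and −0.14. KCNK1 had 1 probe, so no other probe of the gene bears on this value. Across the array, 7 probes were at 1000 or more on all arrays of the other doses and under 50 on both at 100 μM. They included those of NRCAM, SNAP91, RPS28, MIS18A and TMEM185A. In control 1 probe was dark in this way, and at 10 and 50 μM 0 probes were. The part of this group of spots in the KCNK1 result was not tested.

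KCNK15, a TASK relative that is not known to carry current alone, read 576 and 582 in control, 771 and 765 under 10 μM, 792 and 903 under 50 μM and 914 and 854 under 100 μM. Treated arrays were all above control, and the difference at 100 μM was 0.61 (SE 0.10, limma adjusted p = 0.0132). KCNK16, the TALK-1 channel of the pancreas, read 105 and 115 at 100 μM, against 79.3 and 56.2 in control (0.72, SE 0.17), and its other probe had 0.51 without passing. The KCNK16 call held under 8 of the 15 other settings, and the difference was 0.46 to 0.91 with 1 array left out. KCNK10, the TREK-2 channel that opens on stretch and heat, had 3 probes at −0.55, −0.33 and −0.19, of which the lowest was beyond array noise and had −0.03 under median scaling. KCNK10 was picked out after its values were seen. KCNK3 (TASK-1), bright in untreated cells, had 8255 and 7129 at 100 μM, against 7053 and 7595 in control, a difference of 0.07 (SE 0.12).

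Calcium-activated channels had 8 of 10 probes (80%) below control at 100 μM, against 53.3% of all probes, and a median log2 difference of −0.19, which was 0.01 under median scaling. The quartiles of these probes were −0.28 and −0.13, and 1 of 10 (10%) was lower beyond array noise, against 10.4% of all probes. This was the dimmer probe of KCNT2, a sodium-activated channel, with 428 and 372 in control, 333 and 352 under 10 μM, 291 and 278 under 50 μM and 234 and 267 under 100 μM. Its values at 100 μM were below those of every other dose, and the difference was −0.68 (SE 0.12, limma adjusted p = 0.0139). The brighter KCNT2 probe had −0.14 (SE 0.13). KCNMA1 had 2304 and 2168 at 100 μM, against 2766 and 2444 in control (−0.22, SE 0.11), KCNN1 had 0.08 (SE 0.10) and KCNT1 had 0.03 (SE 0.14), and none of the 3 passed. Among the accessory genes, 1 of 5 probes of KCNMB3, a BK subunit, fell by 0.59 (SE 0.14), with 130 and 160 at 100 μM, against 205 and 230 in control. KCNMB4 on its brighter probe read 1983 and 4668 at 100 μM, against 1752 and 2552 in control, so that the arrays of 1 RNA differed by more than the groups did.

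KCNQ1DN, the noncoding gene, was dim and fell at every dose. It read 56.9 and 56.2 in control, 35.7 and 35.6 under 10 μM, 24.6 and 20.2 under 50 μM and 31.8 and 33.4 under 100 μM. All treated arrays were under the background level of 50, so each dose allows only that it was at least 1.13-fold lower than control.

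**Figure D3:**
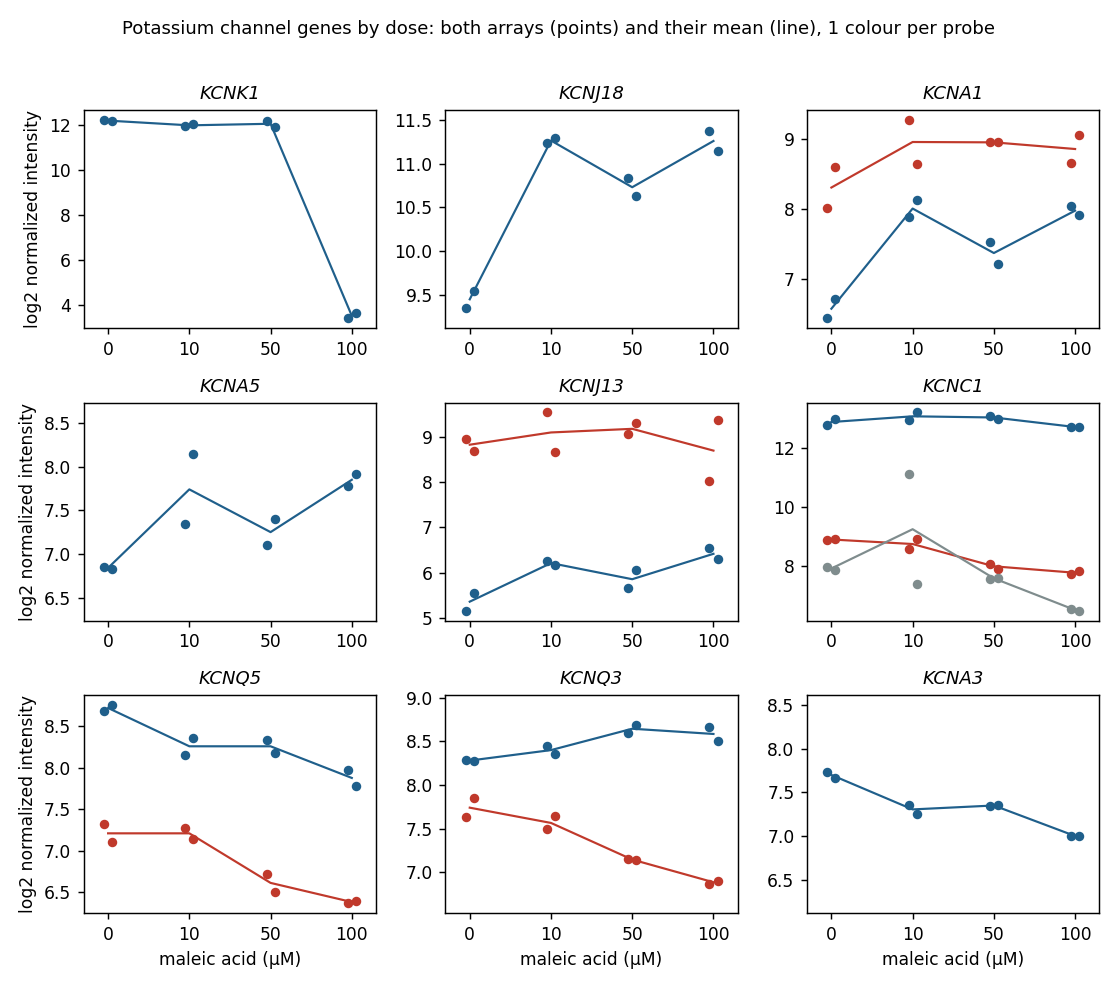
Log2 normalized intensity (y axis) against the dose of maleic acid (x axis, evenly spaced steps) for 9 potassium channel genes, with 2 points per dose for both arrays, a line through their mean and 1 colour per probe. KCNK1 is level until 50 μM and near 3.5 on the log2 scale at 100 μM, KCNJ18 and the dimmer KCNA1 probe are higher at each dose, and both KCNQ5 probes are lowest at 100 μM.

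The lower doses moved few potassium channel probes. At 10 μM, 3 of 130 were over 2-fold higher (2.31%) and 0 lower, against 1.82% and 0.507% of all probes. The limma fit placed 3 higher and 2 lower beyond array noise, against 1.72% and 1.57% of all probes. The 3 higher were KCNJ18, KCNA1 and KCNIP4, and the 2 lower were KCNG3 (−0.65) and KCNQ1DN. Over 2-fold were KCNJ18, KCNA1 and the dimmest KCNC1 probe, whose 1.34 rested on a single array and was not beyond array noise.

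At 50 μM, 3 potassium channel probes lay over 2-fold above control and 2 below it by their measured values, against 1.12% and 0.454% of all probes. The 3 above were KCNJ18, KCNA2 and KCNAB1, a beta subunit whose arrays were under 50 in both groups and which is given no fold, and the 2 below were KCNK5 and KCNQ1DN, which has only the bound given above. Beyond array noise, 2 were above and 2 below control, against 1.13% and 1.17% of all probes. The 2 higher beyond noise were KCNJ18 and KCNJ1 (0.72), and the 2 lower were KCNC1 (−0.91) and KCNQ1DN. KCNK5, the TASK-2 channel of acid-base control, read 17.6 and 52.2 at 50 μM, against 78 and 88.5 in control. Its difference of −1.46 (SE 0.46) was over 2-fold with arrays that lay far apart, and it was not beyond array noise. KCNA2 on its brighter probe was over 2-fold higher at 50 μM (1.02, SE 0.52) and not beyond array noise either. With median scaling, 31 potassium channel probes were over 2-fold higher (23.8%) and 0 lower at 10 μM, against 14.3% and 0.239% of all probes, and 35 were higher (26.9%) and 0 lower at 50 μM, against 15.1% and 0.28%.

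Of the 13 probes higher at 100 μM, 12 were on the same side of control at both lower doses, 4 increased at every step of the dose, and 8 had a higher value at 10 than at 50 μM. Of the 15 lower ones, 13 were on the same side at both lower doses and 5 decreased at every step. All 3 doses share the control arrays, so these counts are a description. Over the 130 probes, 14 increased at each dose step (10.8%) and 13 decreased at every step (10%), against 9.00% and 9.27% of all probes. A limma fit over the rank of the dose, with the 4 averaged samples and 2 residual degrees of freedom, passed 0 potassium channel probes in either direction after adjustment, as it passed 0 (0%) of all probes. On simulated data with the spread of technical arrays, it recovered 1% of log2 changes of 1 and 66% of changes of 2. Its 0 calls therefore do not show that a dose trend of the sizes seen here is absent. At an unadjusted p under 0.05 the fit had 8 increasing (6.15%) and 10 decreasing (7.69%), against 9.55% and 7.82% of all probes. The lowest adjusted p was 0.197, shared by the middle KCNC1 probe (−0.42 per step), KCNQ3 (−0.30), both KCNQ5 probes (−0.25 and −0.31), KCNE3 (0.28), KCNJ1 (0.27) and the dimmer KCNT2 probe (−0.23).

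**Figure D4:**
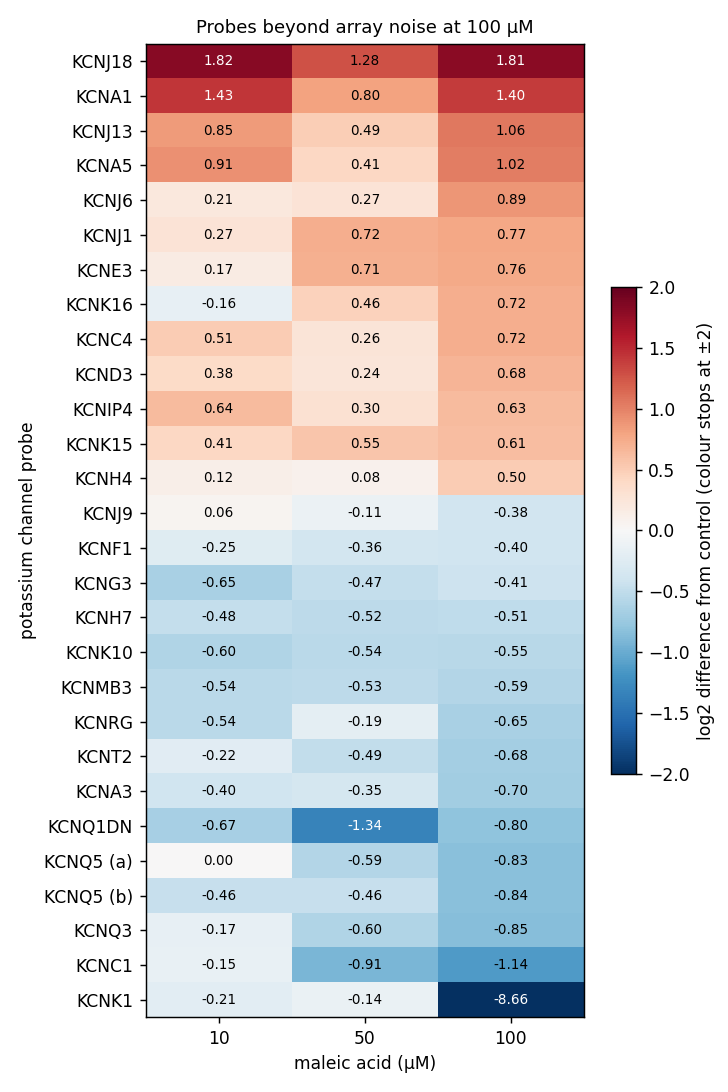
Log2 difference from control at each dose of maleic acid (x axis) for the 28 potassium channel probes beyond array noise at 100 μM (y axis), with the value printed in each cell, red for higher and blue for lower than control, and colour that stops at 2 in either direction. Dim probes that the text gives as a bound are drawn at their fitted difference. The highest probes, KCNJ18 and KCNA1, are lowest at 50 μM among the treated doses, and KCNK1 departs from control at 100 μM.

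Probes of the same potassium channel gene mostly lay on the same side of control at 100 μM, but where any was beyond array noise it was mostly 1 probe alone. The same counts were not made for all genes with several probes, so this is a description of these genes only. Of the 92 genes, 33 had several probes, 71 in all, and 25 of these had every probe on the same side of control at 100 μM. In 15 of the 33 at least 1 probe was beyond array noise, and in 14 of these it was a single probe. For the 59 genes with 1 probe no such comparison could be made. Both arrays of a dose lay over 2-fold apart for 4, 2, 2 and 5 potassium channel probes at 0, 10, 50 and 100 μM (3.08%, 1.54%, 1.54% and 3.85%), against 1.98%, 1.71%, 1.8% and 2.64% of all probes.

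Genes that work with potassium channels or move potassium by other means were measured for 22 of 28 listed genes, with 32 probes. At 100 μM, 2 of these rose and 3 fell beyond array noise, and 27 did neither, where the shares over all probes were 8.94% and 10.4%. HCN2, a pacemaker channel that passes sodium and potassium, read 6128 and 5873 at 100 μM, against 3908 and 3763 in control (0.65, SE 0.10, limma adjusted p = 0.00989), while its dimmer probe had −0.15 (SE 0.15). SLC12A4, the potassium-chloride cotransporter KCC1, rose by 0.82 (SE 0.12) on its brighter probe, with 938 and 805 at 100 μM, against 519 and 465 in control, and fell by 0.50 (SE 0.11) on the other. DPP6, an accessory subunit of Kv4 channels, fell by 0.38 (SE 0.09) on 1 probe and had −0.15 (SE 0.10) on the other. TMEM175, a potassium channel of lysosomes, fell by 0.53 (SE 0.14), with 273 and 275 at 100 μM, against 385 and 407 in control. The median log2 difference of the 32 probes was −0.05, near the −0.03 of all probes.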

How the data were processed

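RNA of SH-SY5Y cells at 4 doses of maleic acid was profiled, each dose as 1 sample on 2 arrays. The authors used an Agilent scanner, GenePix 4.1 for the spots and Rosetta Resolver for the signals, and removed spots with a flag below 0. The deposited values are linear intensities. A median scaling is named in the methods, but the array medians differ. The method of background subtraction is not stated in the sources used here. No count or depth exists for arrays, and the number of arrays limits the precision.

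Intensities under 1 were set to 1, taken to log2 and quantile-normalized across the 8 arrays (limma 3.58.1, R 4.3.3), with tables and plots made in Python 3.11.15 and matplotlib 3.10.9. Log2 values of both arrays were averaged per dose. Over 2-fold is a count with no test. The fit over 8 arrays (limma, moderated, two-sided, Benjamini-Hochberg over 31741 probes, threshold 0.05) has the spread between technical arrays, so that its p-values compare RNA samples and not conditions. A probe under 50 on both arrays of a group was given a bound against 50. Named by rule were, in each subfamily, the brightest and the most changed probes, every probe over 2-fold at any dose with its gene's other probes (unless under 50 in both groups), KCNC1, and partner genes beyond array noise. Further genes were picked out after their values were seen, as said where they appear. Genes, lists and the level of 50 were chosen with earlier results of these data known. Probes came with 1 symbol (24658), several (1002) or none here (6081), and 91 of the 92 symbols are current. The fits were tested on simulated data with equal steps over the doses and the spread of technical arrays. A log2 change of 1 at 100 μM was recovered for 57% of probes by the fit over 8 arrays and 1% by the fit over dose rank. For a change of 2 these shares were 87% and 66%. Alternatives were median scaling, cyclic loess, unscaled values, a floor of 32, an offset of 50, a filter on dim probes, a replicate block, dose in μM and each array left out.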

Additional observations from a re-analysis of the deposited data

How the results depend on the processing

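The counts over 2-fold and beyond array noise moved both with the scaling of the arrays and with single arrays left out. With cyclic loess the probes over 2-fold were 7 higher at 10 μM, 5 higher at 50 μM and 5 lower at 100 μM. Over all probes these were 910, 691 and 641, against 577, 357 and 333 with quantile normalization. With median scaling they were 31, 35 and 26 higher at 10, 50 and 100 μM (23.8%, 26.9% and 20%), against 14.3%, 15.1% and 10.6% of all probes. At 50 and 100 μM, 0 and 5 (3.85%) were lower, against 0.28% and 0.989% of all probes. With no scaling they were 19, 38 and 11 higher at 10, 50 and 100 μM (14.6%, 29.2% and 8.46%), against 7.18%, 17.2% and 5.26% of all probes. Lower at these doses were 2, 0 and 7 (1.54%, 0% and 5.38%), against 4.39%, 0.189% and 5.92% of all probes. With an offset of 50 they were 1 and 2 higher at 50 and 100 μM, against 98 and 434 of all probes. Lower at 50 μM were 0 with that offset, 0 with a floor of 32 and 1 with the filter on dim probes. Over all probes run these were 36, 61 and 73. Leaving out 1 array at a time gave 3 to 7 higher and 0 to 1 lower at 10 μM, against 522 to 729 and 109 to 373 of all probes. Without the first control array 5 were higher and 1 lower. Without the second control and the second 10 μM array, 7 and 5 were higher. At 50 μM there were 2 to 3 in either direction, against 292 to 523 higher and 104 to 310 lower of all probes. At 100 μM there were 3 to 6 higher and 3 to 5 lower, against 886 to 1467 and 315 to 700 of all probes. The 5 lower came without the second 100 μM array.

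Beyond array noise at 100 μM, median scaling gave 28 higher and 8 lower, and single arrays left out gave 4 to 13 higher and 5 to 14 lower. The fit over the rank of the dose passed 1 lower probe with no scaling and 0 under the other alternatives run. Of partner probes, 4 were higher with median scaling and 7 lower with no scaling, and arrays left out gave 0 to 2 higher (1 without control array 1 and 0 without control array 2) and 0 to 3 lower. No partner probe was lower without the first or second control array, either 50 μM array or the second 100 μM array, and 1 was without the first 100 μM array. Of all probes, 16.1% were higher with median scaling and 35.8% lower with no scaling beyond array noise at 100 μM. Of the genes that changed sign, KCNJ8 had −0.60, KCNK3 −0.56, KCNN1 −0.50 and KCNT1 −0.60 with no scaling, where the median of all probes was −0.339.

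Median log2 differences at 100 μM were higher with median scaling in each subfamily, with 0.34 for voltage-gated channels, 0.62 for their accessory genes, 0.60 for inward rectifiers, 0.36 for two-pore channels, 0.01 for calcium-activated channels and 0.57 for their accessory genes. With no scaling they were 0.30 for voltage-gated accessory genes, 0.29 for inward rectifiers, −0.31 for calcium-activated channels and 0.25 for their accessory genes. The filter gave −0.10 for voltage-gated channels, cyclic loess 0.21 and a floor of 32 0.08 for their accessory genes, an offset of 50 −0.12 for calcium-activated channels, and 1 value per gene 0.21 for calcium-activated accessory genes. Single arrays left out gave 0.14 to 0.27 for voltage-gated accessory genes, 0.05 to 0.25 for inward rectifiers, −0.24 to −0.14 for calcium-activated channels and −0.09 to 0.07 for their accessory genes.

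With the replicate number as a block, 11 potassium channel probes rose and 12 fell beyond array noise, against 2310 and 2385 of all probes. Without the block 2837 and 3311 of all probes did. Of partner probes, 2 rose and 1 fell with the block. Deviations of same-numbered arrays correlated at −0.0796 to 0.11 between doses, so the numbers are not taken to pair the arrays. The cause of these changes was not tested. Values under 50 limit what the dim probes can show, and 102 of 130 probes reached 50 in untreated cells (92 with median scaling, 73 at a level of 100).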
